A study of Mus musculus with 24 samples.

Results

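Claudins are membrane proteins of the tight junction, the seal between neighbouring epithelial cells. Each nephron segment uses its own set, and the set decides which ions and how much water pass between the cells of that segment. Some claudins form pores for cations or anions, and others close the junction. The 10 claudin genes described here (Cldn1, Cldn2, Cldn3, Cldn4, Cldn7, Cldn8, Cldn10, Cldn14, Cldn16 and Cldn19) were chosen by gene symbol as the claudins of distinct nephron segments, and are 10 of the 54532 genes in the count table.

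RNA-seq read counts were available for whole kidneys of 24 C57BL/6 mice aged 18 days, 1 library per mouse, and all mice carried the RC missense allele of Pkd1. RC/+ mice, labelled control, carried a floxed second Pkd1 allele without Cre (n = 3). RC/- mice, labelled cystic, carried the same floxed allele with Ksp-Cre, which is driven by the Cdh16 promoter in tubule epithelium (n = 5). In the D18 line (founder 3) and the D53 line (founder 2) the RC allele lacked its miR-17 binding motif, which lies in the 3′ UTR, in both the RC/+ (n = 3 each) and the RC/- genotype (n = 5 each). Each edited line descends from a single founder, and Cre and the cystic genotype cannot be told apart. Cystic and noncystic here name the RC/- and RC/+ genotypes, edited or not, and not the state of a kidney. The paper reports that loss of the motif relieved the cystic disease of RC/- mice almost completely.

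Library totals ranged from 20.4 to 30.8 M counts. Pkd1 itself was at 49.9 to 51.5 CPM (read count scaled to the library total) in RC/+ and 52.0 to 65.2 CPM in RC/-, a log2 fold change (log2FC) of 0.21 ± 0.12 (SE, adjusted p = 0.173, limma), and counts over the whole gene do not measure the floxed part. The 8 libraries numbered 20 to 27 (3 of 5 RC/- D18 and all 5 RC/- D53) held skeletal muscle transcripts: 6 muscle markers summed to 147 to 194 CPM in RC/- D53 and up to 180 CPM in RC/- D18, against 5.27 to 9.36 CPM in the RC/+, RC/+ D18, RC/+ D53 and RC/- groups. The part of this difference in the values of the edited cystic kidneys was not tested beyond the fits given beside them.

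All values below are CPM or log2 CPM from total counts, compared by limma across all 22570 tested genes with Benjamini-Hochberg adjustment. All 10 claudins passed the expression limit. In noncystic RC/+ kidneys, level per kilobase of exon ordered the claudins. Cldn2 was highest at 213 ± 23.9 CPM per kb (SD, n = 3). Cldn8 (88.1 ± 9.10) and Cldn10 (85.1 ± 3.78) came next and did not differ beyond their spread. Cldn4 followed at 40.9 ± 6.44 CPM per kb. Cldn16, Cldn7 and Cldn19 lay together between 25.5 and 27.5 CPM per kb, then came Cldn3 at 16.7 and Cldn1 at 6.98. Cldn14 was near the limit of detection, with 3 or 4 counts in each RC/+ library.

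In RC/- kidneys this order was different. Cldn4 stood first at 188 ± 27.6 CPM per kb (SD, n = 5), above all other claudins in every library. Cldn8, Cldn2, Cldn7, Cldn3, Cldn10, Cldn19 and Cldn16 formed an unbroken series from 101 down to 33.6 CPM per kb in which each neighbouring pair overlapped. The sum over the 10 genes was 530.4 ± 40.4 CPM per kb in RC/+ and 634 ± 54.1 in RC/-. Cldn2 made up 40.1% of that sum in RC/+ and 13.1% in RC/-, whereas Cldn4 made up 7.69% and 29.7%. The share of Cldn8 was 16.6% and 15.9%.

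**Figure D1:**
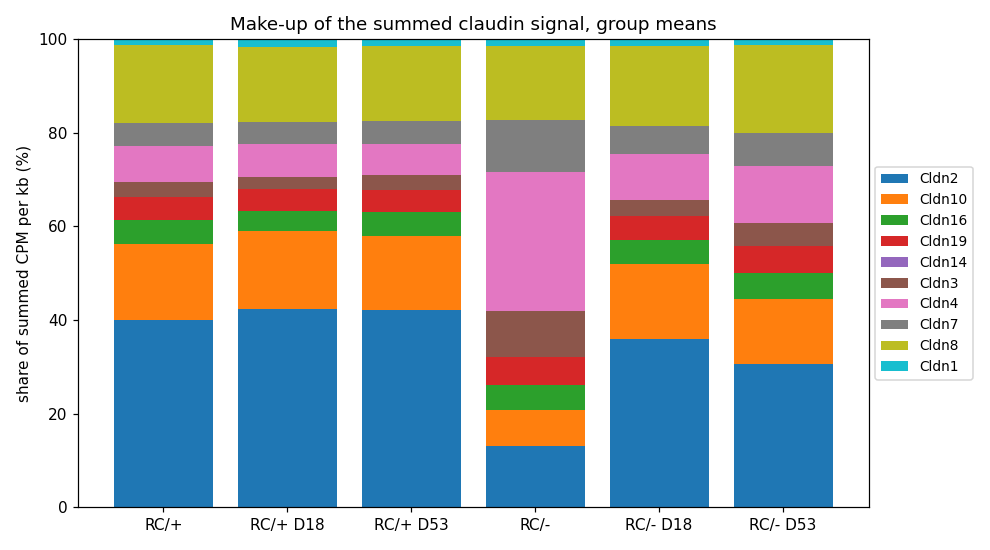
Share of each claudin in the summed level of the 10 genes (percent of summed CPM per kb of exon, group means) in the 6 groups. Cldn2 holds 40.1% in RC/+ and 13.1% in RC/-, Cldn4 holds 7.69% and 29.7%, and both edited cystic groups lie nearer to the RC/+ make-up.

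The first comparison asked which claudins differed in cystic kidneys with the miR-17 motif intact. Of the 10 genes, 6 were higher and 2 lower in RC/- than in RC/+. Over all tested genes 37.6% were called, 25.5% higher and 12.2% lower, and the claudin counts are to be read against these shares. The median log2FC of the claudins was 0.47 and that of all genes was 0.14 with total-count scaling and 0.01 with TMM scaling. Under TMM, 3844 genes were higher and 3896 lower over the table, and 5 claudins were higher and 2 lower. Groups did not overlap for 7 of the claudins, beside 37.6% of all genes.

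**Figure D2:**
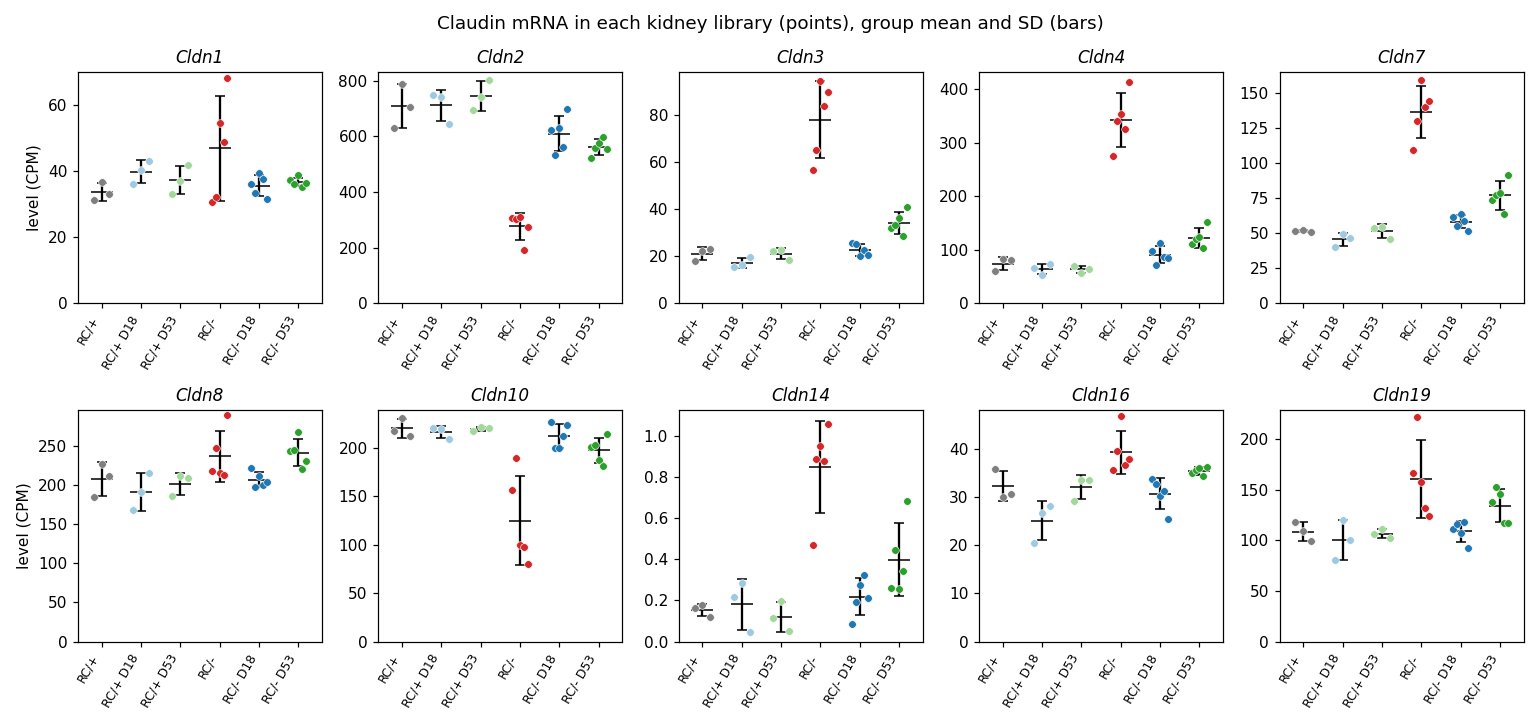
Level of each claudin (CPM, linear axis from 0) in every library of the 6 groups, with the group mean and SD as bars. Cldn2 and Cldn10 are lowest in RC/-, Cldn3, Cldn4, Cldn7 and Cldn14 are highest there, and Cldn8 lies between 168 and 290 CPM in every group.

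Both claudins that fell form pores. Cldn2, the cation and water pore of the leaky proximal tubule, was at 630, 789 and 706 CPM in RC/+ and at 306, 302, 309, 192 and 274 CPM in RC/-. The highest RC/- library was below the lowest RC/+ library. The log2FC was -1.37 ± 0.12 (SE, adjusted p = 3.97e-09, limma), which is 2.59-fold lower. Cldn10 encodes an anion pore in the proximal tubule and a cation pore in the thick ascending limb, from different first exons that gene counts pool. It was at 218, 231 and 212 CPM in RC/+ and 156, 189, 100, 97.9 and 79.9 CPM in RC/-, a log2FC of -0.90 ± 0.17 (SE, adjusted p = 1.27e-04, limma). The RC/- kidneys were spread for Cldn10, with 2 libraries above 150 CPM and 3 at or below 100 CPM.

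Cldn3, Cldn4 and Cldn7, which tighten junctions of the distal nephron and collecting duct, rose without overlap between groups. Cldn4, in the collecting duct a barrier to cations that leaves a path for chloride, showed the largest change of the 10 genes. It was at 60.9, 82.1 and 80.0 CPM in RC/+ and at 276, 342, 354, 325 and 415 CPM in RC/-. Its lowest RC/- library was more than 3 times the highest RC/+ library, and the log2FC was 2.20 ± 0.15 (SE, adjusted p = 6.79e-11, limma). Cldn3 rose from 17.8, 22.2 and 23 CPM to 56.8, 65.3, 94.5, 83.9 and 90.1 CPM, a log2FC of 1.87 ± 0.15 (SE, adjusted p = 8.39e-10, limma). Cldn7, found along the lateral membrane as well as in the junction, rose from 51.7, 52.2 and 51.0 CPM to 109, 130, 159, 140 and 144 CPM. Its log2FC was 1.39 ± 0.11 (SE, adjusted p = 9.54e-10, limma).

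Cldn3 and Cldn4 lie next to each other. On GRCm38, Cldn3 spans chromosome 5 from 134986214 to 134987472 on the plus strand and Cldn4 spans 134945119 to 134946934 on the minus strand. Their start sites are 39.3 kb apart and no annotated gene lies wholly between them. Cldn7 is on chromosome 11, from 69964779 to 69967885 on the plus strand. Because these 3 genes moved together, their promoter windows (RefSeq, GRCm38.p6, 250 bases before to 50 after each start) were searched for CAGGTG and its reverse complement CACCTG, the E-box bound by Snail and Zeb repressors. The motif was chosen after the values were seen, and 9 of the 10 claudins had a window. The letters were found in Cldn3, Cldn4, Cldn7 and Cldn14, and in 22.6% of all genes with a window, so 4 of 9 is a count to be read beside that share. The 30 bases around each match in Cldn3, Cldn4 and Cldn7 are given with the motif in capitals, read on the gene's strand. Positions count from the RefSeq start of the window, and both Cldn7 matches lie in the window of its downstream start at 69965421, inside the gene span given above.
Cldn3, chr5:134986233-134986262, first motif base at 32 from the start site: caaagccacaggCAGGTGcaggggcagtct
Cldn4, chr5:134946931-134946960, first motif base at -14: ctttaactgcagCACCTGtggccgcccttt
Cldn4, chr5:134946906-134946935, first motif base at 12: cctttcttgttgCAGGTGcaggcaggaaag
Cldn7, chr11:69965312-69965341, first motif base at -97: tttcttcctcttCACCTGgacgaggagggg
Cldn7, chr11:69965352-69965381, first motif base at -57: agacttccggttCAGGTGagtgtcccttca
The AP-1 letters TGANTCA, which read the same on both strands, were found in 8.97% of genes and in 1 claudin. That was Cldn4, which held 2 copies at -240 and -158.
Cldn4, chr5:134947155-134947184: tctaggctggTGACTCAgtgtctgtgtccc
Cldn4, chr5:134947075-134947104: gatactggcgggTGACTCAggggcccagga
A match of letters is a description of the window and not evidence of binding.

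The claudins of the thick ascending limb did not move as one. Cldn19, which pairs with Cldn16 to form the calcium and magnesium pathway of this segment, was at 118, 109 and 98.8 CPM in RC/+ and at 166, 221, 157, 132 and 124 CPM in RC/-. The groups did not overlap and the log2FC was 0.53 ± 0.14 (SE, adjusted p = 4.64e-03, limma). Cldn16 was at 35.9, 30.2 and 30.8 CPM in RC/+ and 35.7, 39.6, 46.8, 36.8 and 38.0 CPM in RC/-. These groups overlapped, the log2FC was 0.28 ± 0.10 (SE, adjusted p = 0.0360, limma), and the call was lost in 6 of 8 alternatives, with TMM scaling at 0.14 (adjusted p = 0.258, limma). It was also lost without RC/+ replicate 5 or 6 or RC/- replicate 14 or 15, with adjusted p between 0.0531 and 0.150 (limma). Cldn14, which inhibits the Cldn16 and Cldn19 pathway, had 3 to 4 counts in each RC/+ library and 11 to 24 in each RC/- library. Its fitted log2FC of 1.96 ± 0.38 (SE, adjusted p = 2.09e-04, limma) depends on the prior count at such low levels.

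Cldn8 and Cldn1 did not pass the test. Cldn8, which recruits Cldn4 to collecting duct junctions, was at 185, 227 and 211 CPM in RC/+ and 218, 247, 216, 214 and 290 CPM in RC/-. The log2FC was 0.19 ± 0.10 (SE, adjusted p = 0.133, limma). Cldn1, a sealing claudin found in the parietal cells of Bowman's capsule, was at 31.4, 36.8 and 33.1 CPM in RC/+ and at 30.6, 32.2, 54.8, 48.9 and 68.3 CPM in RC/-. For Cldn1, 2 RC/- libraries (replicates 13 and 14) lay among the RC/+ values and 3 lay above them. The log2FC was 0.41 ± 0.17 (SE, adjusted p = 0.0608, limma), and it passed the threshold without RC/- replicate 13 (0.55, adjusted p = 0.00666) or replicate 14 (0.53, adjusted p = 0.0115).

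The same RC/- libraries separated for Cldn10 in the other direction. Replicates 13 and 14 held the highest Cldn10 and the lowest Cldn1 of the group, and over the 24 libraries the deviations of these genes from their group means had a Pearson r of -0.86. The SD of these genes was widest in RC/-, at 37.0% of the mean for Cldn10 and 33.8% for Cldn1. In the other groups it was at most 6.70% and 11.6%, so the 5 RC/- libraries weigh most in this r. Among 15115 genes, the deviations over the 24 libraries that lay closest to those of Cldn4 were of the keratins Krt19 (r = 0.88) and Krt18 (r = 0.83), and closest to Cldn19 the distal nephron transcription factor Tfap2b (r = 0.88). Closest to Cldn2 was the peroxisomal enzyme gene Dao (r = 0.82), to Cldn3 Prcp (r = 0.84), to Cldn7 Guca2a (r = 0.84) and to Cldn16 the homeobox gene Hoxd8 (r = 0.83). For Cldn1 it was Wls (r = 0.89), which encodes the carrier that Wnt proteins need for secretion, and for Cldn8 8430429K09Rik (r = 0.78). These correlations are descriptive, since whole-kidney libraries also differ in depth and cell make-up, whose part in r was not tested.

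In whole-kidney RNA, fewer cells of a segment and less RNA per cell cannot be told apart. Marker lists for the segments are therefore given beside the claudins. All 11 proximal tubule markers were lower in RC/- than in RC/+, with a median log2FC of -1.35. Their summed level was 9218 to 10085 CPM in RC/+ and 2175 to 5052 CPM in RC/-. Lrp2, the endocytic receptor megalin, changed by -1.35 ± 0.19 and Cubn, its partner cubilin, by -1.13 ± 0.20 (log2, SE). Of 8 thick ascending limb markers, 7 were lower (median -1.03), among them Umod, which encodes uromodulin, at -0.69 ± 0.15 and the sodium-potassium-chloride cotransporter Slc12a1 at -1.18 ± 0.22. Of 8 distal convoluted and connecting tubule markers, 7 were lower and 1 was higher (median -1.73), and their summed level was 3508 to 3867 CPM in RC/+ and 792 to 1292 CPM in RC/-. The sodium chloride cotransporter Slc12a3 changed by -1.76 ± 0.21 and the calcium-binding parvalbumin gene Pvalb by -2.18 ± 0.36. Of 9 principal cell markers, 7 were higher (median 1.58), and their summed level was 1194 to 1487 CPM in RC/+ and 2657 to 5044 CPM in RC/-. The water channel genes Aqp2 and Aqp3 changed by 1.23 ± 0.37 and 1.15 ± 0.23. All 6 macrophage markers were also higher (median 1.60), as were 5 of 6 tubule injury markers (median 2.71), while 0 of 4 urothelial markers passed the test. Higher and lower counts were 1 and 3 of 6 intercalated cell, 1 and 5 of 6 podocyte, 0 and 2 of 5 endothelial and 3 and 0 of 5 fibroblast markers. Of these genes, those named passed the adjusted threshold in limma.

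Each claudin with a known segment was then set against its segment's markers within each library, as log2 CPM of the claudin minus the mean log2 CPM of the list. The 45 differences were compared by exact two-sided permutation tests over libraries. With 3 against 5 libraries the smallest possible p is 0.0357. Among the 45 p values found here it became 0.0731 after adjustment, so no comparison of RC/- with RC/+ passed. Relative to the proximal tubule list, Cldn2 was at 0.33 ± 0.16 in RC/+ and 0.35 ± 0.27 in RC/- (log2, SD, n = 3 and 5), a difference of 0.02 (p = 0.964, exact permutation). The difference for Cldn10 against the thick ascending limb list was 0.09 (p = 0.50, exact permutation), and -0.21 with the first 4 genes of that list. Cldn10 counts also hold its proximal tubule form, and Cldn10 was not set against the proximal tubule list.

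Cldn16 and Cldn19 did not overlap between RC/- and RC/+ on this scale. Cldn19 relative to the thick ascending limb markers was at -1.26, -1.42 and -1.42 in RC/+ and at -0.02, 0.23, 0.21, 0.19 and 0.18 in RC/-. The groups did not overlap, with a difference of 1.53 on the log2 scale. For Cldn16 the difference was 1.27 and for Cldn14 it was 2.95, also without overlap (p = 0.0357 each, exact permutation). In the collecting duct, Cldn7 relative to the principal cell list overlapped between RC/- and RC/+ (difference 0.03). The values of Cldn4 (difference 0.85) and Cldn3 (0.52) relative to that list were higher in every RC/- library than in any RC/+ library. Cldn8 differed in the other direction: relative to the principal cell markers it was at 1.82, 1.92 and 1.92 in RC/+ and at 0.75, 0.83, 0.29, 0.39 and 1.31 in RC/-, a difference of -1.17. These claudins were not set against the distal convoluted and connecting tubule list, which was lower in RC/-.

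**Figure D3:**
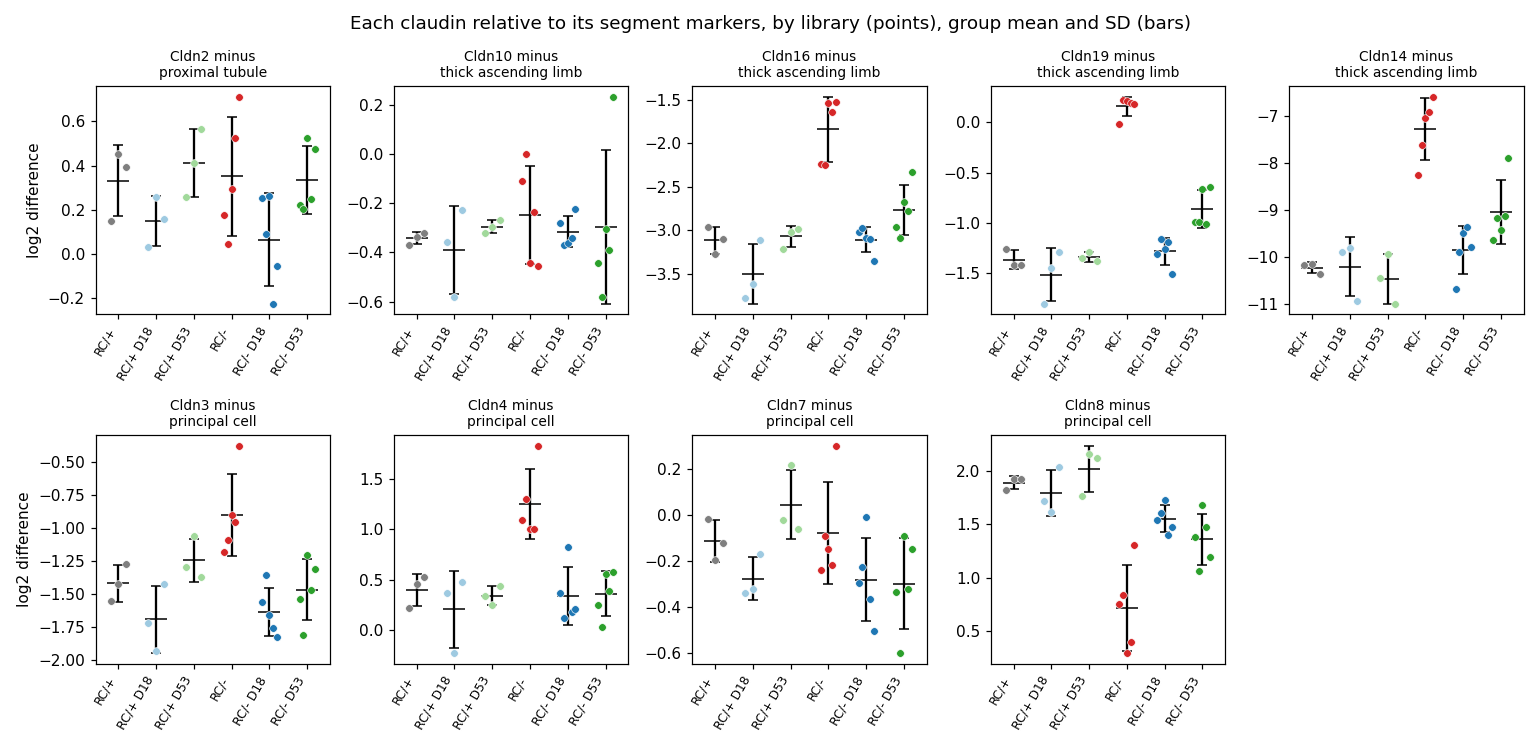
Log2 CPM of each claudin minus the mean log2 CPM of its segment markers in every library of the 6 groups, with group mean and SD as bars. Cldn16, Cldn19 and Cldn14 are highest in RC/- and Cldn8 is lowest in RC/-, while Cldn2, Cldn10 and Cldn7 overlap between RC/- and RC/+.

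The next comparisons asked what deletion of the miR-17 motif did to these genes in kidneys of the RC/- genotype. The motif is read by the seed of miR-17, bases 2 to 8, shown here in capitals as RNA (RefSeq, GRCm38.p6, chr14:115043684-115043706, plus strand).
mmu-miR-17-5p: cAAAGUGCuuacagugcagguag
The matching letters in a transcript are GCACTTT. Among 20832 genes with an annotated 3′ UTR (longest per gene), 11.9% held them. Of the 10 claudins only Cldn1 did, once, at position 760 of a 2396-base 3′ UTR. The site is at chr16:26358272-26358278 on the minus strand of GRCm38 and is shown with the seed match in capitals.
Cldn1: tggacggtctttGCACTTTggtctggagct
The motif deleted in the edited lines was that of Pkd1 and not this site of Cldn1.

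In RC/- D18 kidneys 8 of the 10 claudins differed from RC/-, 2 higher and 6 lower. Over all genes 41.2% were called, 14.3% higher and 26.9% lower, and 8 did not overlap between groups, beside 27.8%. With TMM scaling the split over all genes was 4443 higher and 4400 lower, and that of the claudins stayed at 2 and 6. Cldn2 was at 624, 534, 629, 562 and 697 CPM and Cldn10 at 226, 200, 200, 212 and 224 CPM. All of these libraries lay above every RC/- library, and the log2FC values were 1.16 ± 0.10 (adjusted p = 5.80e-09) and 0.84 ± 0.14 (adjusted p = 4.16e-05, SE, limma). Cldn4 was at 98.5, 70.7, 113, 85.9 and 84.7 CPM, a log2FC of -1.92 ± 0.13 (SE, adjusted p = 7.50e-11, limma). Cldn3 (-1.75 ± 0.13) and Cldn7 (-1.22 ± 0.09) fell as well, with Cldn3 between 20.2 and 25.7 CPM and Cldn7 between 51.6 and 63.4 CPM. The level of all 3 was below every RC/- library.

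In the thick ascending limb, Cldn19 was 91.9 to 118 CPM in RC/- D18 and differed from RC/- by -0.53 ± 0.12 (SE, adjusted p = 0.00123, limma). Cldn16 was at 25.5 to 33.9 CPM and differed by -0.36 ± 0.09 (SE, adjusted p = 0.00267, limma). The Cldn16 call was lost with libraries 20 to 27 as a covariate (-0.23, adjusted p = 0.145), and when RC/- D18 was represented by libraries 18 and 19 alone, which lack the muscle transcripts (-0.23, adjusted p = 0.141), and 7 claudins were then called. Cldn14 had 2 to 9 counts per library and differed by -1.66 ± 0.33 (SE, adjusted p = 2.32e-04, limma). Cldn1, at -0.33 ± 0.15 (adjusted p = 0.0741), and Cldn8, at -0.19 ± 0.08 (adjusted p = 0.0768), did not pass (SE, limma). Without RC/- replicate 13 or 14, Cldn1 passed at -0.47 (adjusted p = 0.00702) and -0.45 (adjusted p = 0.0124), and without replicate 16 Cldn8 passed at -0.22 (adjusted p = 0.0478, limma).

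In RC/- D53 kidneys 6 claudins differed from RC/-, 2 higher and 4 lower. Over all genes 30.2% were called, 11.3% higher and 18.9% lower, and 4 did not overlap, beside 18.8%. With TMM scaling the split over all genes turned, to 3378 higher and 2966 lower, and that of the claudins stayed at 2 and 4. Cldn2 was at 522, 558, 576, 599 and 553 CPM and higher by 1.04 ± 0.10 (adjusted p = 8.70e-08), and Cldn10 was at 201, 203, 187, 181 and 214 CPM and higher by 0.74 ± 0.14 (adjusted p = 3.43e-04, log2, SE, limma). Cldn2 lay above all RC/- libraries, and the lowest Cldn10 values lay within the RC/- range. Cldn4 was at 111, 120, 123, 104 and 151 CPM, a log2FC of -1.49 ± 0.13 (SE, adjusted p = 1.31e-08, limma). Cldn3 (-1.17 ± 0.13) and Cldn7 (-0.83 ± 0.09) were lower too, all 3 below every RC/- library. Cldn14 fell by 0.99 on the log2 scale (adjusted p = 0.0241, limma), was at -1.69 with libraries 20 to 27 as a covariate (adjusted p = 0.0636, limma), and lost the call without RC/- replicate 15 or 17 or RC/- D53 replicate 23 or 25 (adjusted p 0.0517 to 0.0661). Cldn16 (-0.14 ± 0.09), Cldn19 (-0.23 ± 0.12), Cldn1 (-0.28 ± 0.15) and Cldn8 (0.04 ± 0.08) did not pass. Cldn1 passed without RC/- replicate 13 (-0.42, adjusted p = 0.0202) or replicate 14 (-0.40, adjusted p = 0.0333).

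**Figure D4:**
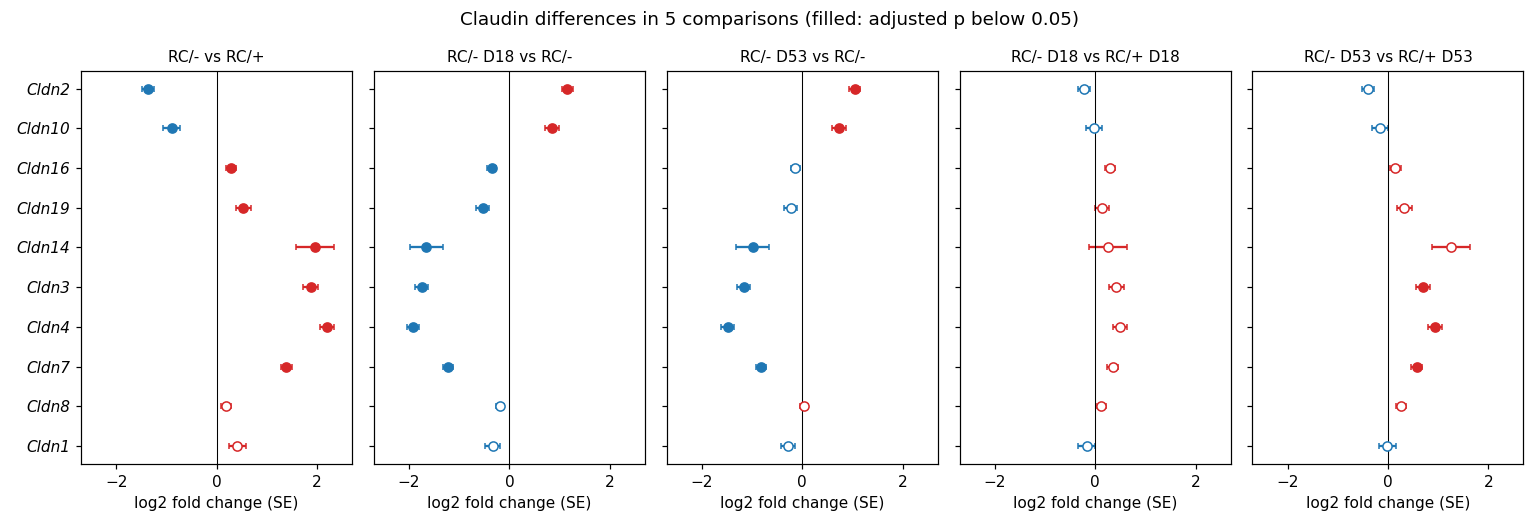
Log2 fold change of each claudin (points, bars are the SE from limma) in 5 comparisons, filled where the adjusted p was below 0.05. Cldn2 and Cldn10 are left of 0 in RC/- vs RC/+ and right of 0 in both edited cystic groups against RC/-, Cldn3, Cldn4 and Cldn7 show the opposite, and these 3 are the filled points within the D53 line.

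The marker lists moved beside the claudins in both edited lines. Of 11 proximal tubule markers, 11 were higher than in RC/- in D18 (median 1.47) and 11 in D53 (median 1.05), with summed levels of 8604 to 12290 and 6659 to 8644 CPM. Thick ascending limb markers were higher for 7 of 8 in each (medians 0.98 and 0.84), and those of the distal convoluted and connecting tubule for 7 and 6 of 8 (medians 1.65 and 1.42). Principal cell markers were lower for 8 of 9 in D18 (median -1.01) and 5 of 9 in D53 (median -0.59). Macrophage markers were lower for 6 of 6 in each (medians -1.24 and -0.93), as were tubule injury markers (medians -2.64 and -2.41). The part of these cell types in the claudin values was not tested beyond the comparison with segment markers.

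Both of these comparisons share the RC/- libraries with the first. Relative to the segment markers, Cldn19 was lower in RC/- D18 than in RC/- by 1.44 on the log2 scale, written as a difference of -1.44, and Cldn16 differed by -1.27 (adjusted p = 0.0357 each, exact permutation). In RC/- D53 the differences were -1.02 for Cldn19 and -0.93 for Cldn16 (adjusted p = 0.0357 each, exact permutation). Cldn4 differed by -0.90 in D18 and -0.88 in D53 and Cldn3 by -0.73 and -0.57 (adjusted p = 0.0357 each, exact permutation). The Cldn3 call in D53 was lost with the first 4 genes of the list (-0.72, adjusted p = 0.0714) and with prior count 0.5 (-0.55, adjusted p = 0.0649, exact permutation). Cldn8 rose relative to the principal cell list in D18, by 0.83 (adjusted p = 0.0357, exact permutation), a call lost with the first 4 genes of the list (0.56, adjusted p = 0.153, exact permutation), and the value in D53 was 0.64 (adjusted p = 0.0731, exact permutation). Cldn14 differed by -2.57 in D18 (adjusted p = 0.0357, exact permutation) and by -1.77 in D53 (adjusted p = 0.0649, exact permutation). In all, 10 of the 45 differences passed, each at the smallest p that 5 against 5 libraries allow. Leaving out any 1 library of RC/-, RC/- D18 or RC/- D53 left 0. A smaller group raises the smallest possible p. Comparisons whose own groups stayed whole lost their calls as well, since all 45 p values are adjusted together. Over all 24 fits without 1 library the count was 0 to 10.

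A further question was how much of the cystic difference remained within each edited line. These comparisons set edited groups against each other, while the spread behind their SE and p comes from the fit to all 24 libraries. In the D18 line 0 of the 10 claudins passed, beside 0.266% of all genes, with 4 at an unadjusted p below 0.05 and a lowest adjusted p of 0.224 (limma). The edgeR quasi-likelihood test and the DESeq2 Wald test also called 0. The largest values were 0.50 ± 0.15 for Cldn4, 0.42 ± 0.15 for Cldn3 and 0.35 ± 0.11 for Cldn7 (log2, SE), and the other 7 claudins lay between -0.23 for Cldn2 and 0.29 for Cldn16. Cldn3 was at 15.4, 16.2 and 19.6 CPM in RC/+ D18, below all RC/- D18 libraries. For Cldn7, at 40.1, 49.7 and 46.8 CPM in RC/+ D18, the groups did not overlap either, and these were the 2 claudins so separated, beside 5.76% of all genes.

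In the D53 line, Cldn3, Cldn4 and Cldn7 were higher in RC/- than RC/+ kidneys, beside 2.60% of all genes called and 2.45% called higher. Cldn4 was at 69.2, 56.0 and 64.8 CPM in RC/+ D53, all below the lowest RC/- D53 library at 104 CPM. Its log2FC was 0.94 ± 0.15 (SE, adjusted p = 3.64e-04, limma). Cldn7 was at 53.6, 54.8 and 46.0 CPM in RC/+ D53 and at 74.1, 77.2, 78.4, 63.4 and 91.7 CPM in RC/- D53, higher by 0.57 ± 0.11 (log2, SE, adjusted p = 0.00289, limma). Cldn3, at 22.2, 22.5 and 18.4 CPM against 32.1, 33.4, 36.2, 28.6 and 40.8 CPM, was higher by 0.69 ± 0.15 (log2, SE, adjusted p = 0.00729, limma). The Cldn3 call was lost without RC/+ D53 replicate 12 (0.60, adjusted p = 0.0807).

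Groups of the D53 line did not overlap for 9 of the 10 claudins, beside 11.6% of all genes. Of those that did not pass the test, Cldn2 was at -0.41 (adjusted p = 0.0714) and Cldn14 at 1.26 ± 0.38 (log2, SE, adjusted p = 0.0823, limma). Cldn10, Cldn1, Cldn16, Cldn8 and Cldn19 lay between -0.16 for Cldn10 and 0.33 for Cldn19. Principal cell markers moved beside Cldn3, Cldn4 and Cldn7 in this line, with 5 of 9 higher (median 1.0) and a summed level of 1038 to 1226 CPM in RC/+ D53 and 1858 to 3103 CPM in RC/- D53. Of 6 macrophage markers, 4 were higher as well (median 0.51), with a summed level of 181 to 222 CPM in RC/+ D53 and 259 to 346 CPM in RC/- D53. Relative to the principal cell list, Cldn4 differed by 0.02 (p = 0.857) and Cldn3 by -0.22 (p = 0.179, exact permutation). Cldn7 differed by -0.34 and Cldn8 by -0.66, without overlap (p = 0.0357 each, exact permutation). Relative to the thick ascending limb list, Cldn19 differed by 0.48 and Cldn14 by 1.41, without overlap (p = 0.0357 each, exact permutation). None of these differences between RC/- D53 and RC/+ D53 passed after adjustment. Muscle transcripts separated the same groups, and their part in the result was not tested apart from 1 fit. With libraries 20 to 27 as a covariate, which is estimated from RC/- D18 alone because all RC/- D53 libraries fall in that set, 1 claudin was called, Cldn3 at 0.97 (adjusted p = 0.0366, limma). Cldn4 was then at 0.77 (adjusted p = 0.104) and Cldn7 at 0.59 (adjusted p = 0.10, limma). Whether D53 and D18 cystic kidneys differ was compared directly: 1 claudin passed, beside 0.266% of all genes, and 2 did not overlap between the groups, beside 2.74%. Cldn3 was higher in RC/- D53 by 0.58 ± 0.13 (log2, SE, adjusted p = 0.0490, limma), a call that was lost with TMM scaling (0.55, adjusted p = 0.0670) and in 9 of the 10 fits without a single library. Without RC/- D53 replicate 26, Cldn3 and Cldn7 both passed. The other 9 claudins lay between -0.11 for Cldn2 and 0.67 for Cldn14 in this comparison.

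Whether the cystic difference itself was not the same in an edited line was tested as an interaction, the difference in the edited line minus that in unedited mice. Both interactions use the RC/- and RC/+ libraries of the first comparison. In each line the deletion cannot be told apart from its founder. For D18, 6 claudins passed, beside 17.1% of all genes, with Cldn4 at -1.71 ± 0.21, Cldn3 at -1.45 ± 0.21, Cldn7 at -1.04 ± 0.16, Cldn14 at -1.70 ± 0.53, Cldn2 at 1.15 ± 0.17 and Cldn10 at 0.87 ± 0.23 (log2, SE, limma). For D53, 5 passed, beside 11.3% of all genes, and Cldn14 was not among them. Cldn8, Cldn16, Cldn19 and Cldn1 passed in neither line.

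In noncystic kidneys the deletion gave no claudin call. Against RC/+, 0 passed in RC/+ D18 (beside 0.00443% of all genes) and 0 in RC/+ D53 (beside 0.00%) in limma, edgeR and DESeq2. Cldn16, at 20.6, 26.7 and 28.2 CPM in RC/+ D18, was the 1 claudin at an unadjusted p below 0.05 (-0.37 ± 0.12, SE, adjusted p = 0.983, limma), and in RC/+ D53 there were 0. The other 9 lay between -0.30 for Cldn3 and 0.24 for Cldn1 in RC/+ D18, and all 10 between -0.29 for Cldn14 and 0.14 for Cldn1 in RC/+ D53. Groups did not overlap for 2 claudins in RC/+ D18, beside 9.95% of all genes, and for 0 in RC/+ D53, beside 8.84%.

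The rest of the junction was examined through 3 lists. Of 14 other claudins, 9 could be tested and 3 were higher in RC/- than in RC/+, beside 25.5% of all tested genes. Cldn6, a claudin of embryonic epithelia, was at 11.9 to 14.6 CPM in RC/+ and 30.9 to 62.2 CPM in RC/- (log2 fold change 1.58 ± 0.28, SE, adjusted p = 6.59e-05, limma). Cldn23 (1.56 ± 0.34) and Cldn9 (1.29 ± 0.39) were at low levels of at most 6.38 and 5.71 CPM. Of 24 membrane and scaffold genes of the tight junction, 12 were higher and 4 lower (median 0.26), beside 25.5% and 12.2% of all genes. The scaffold genes Cgn (1.0 ± 0.11) and Tjp3 (0.96 ± 0.11) rose together with Cldn3, Cldn4 and Cldn7. Ildr2 (-0.88 ± 0.12), Cgnl1 (-0.44 ± 0.14) and Mpp5 (-0.24 ± 0.07) fell.

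Of 10 genes known to regulate claudins, 2 were higher and 6 lower in RC/-, beside 25.5% and 12.2% of all genes. The 6 include Casr, which is also among the 8 thick ascending limb markers. The part of segment make-up in these counts was not tested. Grhl2, a transcription factor that activates claudin genes in the collecting duct, changed by 0.97 ± 0.08, and St14, which encodes the membrane protease matriptase, by 0.81 ± 0.09. Klhl3 and Wnk1, of the kinase pathway that also acts on distal claudins, changed by -0.97 ± 0.11 and -0.96 ± 0.11, and Pth1r, the parathyroid hormone receptor, by -1.0 ± 0.11 (log2, SE). In RC/- D18 against RC/- these lists had 4 higher and 11 lower junction genes and 6 higher and 2 lower regulators. Over all genes 14.3% were higher and 26.9% lower. In RC/- D53 against RC/- the counts were 3 and 9, and 6 and 2, beside 11.3% higher and 18.9% lower over all genes. Within the D53 line, 2 of the 24 junction genes (median 0.07) and 2 of the 10 regulators (median -0.05) were higher in cystic than in noncystic kidneys. Over all genes 2.45% were called higher. Tjp3 (0.47 ± 0.11) was among them, and the regulators were Grhl2 (0.50 ± 0.08) and St14 (0.37 ± 0.09). These named genes went in the same direction as Cldn3, Cldn4 and Cldn7. Within the D18 line 0 genes of either list passed, beside 0.266% of all genes.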

How the data were processed

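RNA-seq was performed on whole kidneys of 24 mice. The authors deposited raw read counts per gene: reads were trimmed with Trim Galore 0.6.3, aligned to GRCm38 with STAR 2.5.3a and counted by STAR on Ensembl release 94 models. The strand column that was kept is not given in the sources used here. The count table held 54532 genes, 19345 of them at 0 in every library, and 0 unused columns of values. GENCODE M21 gave positions and exon lengths (54495 identifiers matched). Mice were grouped by genotype labels, with 3 or 5 per group. Totals were 20.4 to 30.8 M counts, and counting error is small except for Cldn14. Within-group library pairs (39) differed beyond sampling noise (chi-square per degree of freedom 8.45 to 48.2).

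Following the study's methods, limma-trend (limma 3.58.1, R 4.3.3) was run on log2 CPM (edgeR 4.0.16, total counts, prior count 2) for 22570 genes with a mean of at least -3. A mean for each of 6 groups was fitted to all 24 libraries. Tests were two-sided with Benjamini-Hochberg adjustment within a comparison, at 0.05. The script was tested on simulated data. Alternatives were TMM and DESeq2 size factors, edgeR quasi-likelihood, DESeq2 1.42.0 Wald, no filter, prior count 0.5, fewer groups, a covariate for libraries 20 to 27 and leaving out each library. Using libraries 18 and 19 alone for RC/- D18 was added after seeing the data. The members and lists were chosen with earlier results of these data known.

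The rule names all 10 claudins in every comparison, where those without a value of their own in the text are given as a range, the first 2 genes of each marker list, of which those of the nephron segments are given, up to 3 genes per direction with the smallest adjusted p in RC/- vs RC/+ from each junction list, and the genes whose deviations from group means correlate best with each claudin. Some genes that this rule names are not reported here. Where Cldn3 and Cldn19 overlap a gene on the other strand (3.18% and 2.11% of exon bases), reads could not be told apart. Cldn8 had no promoter window in the RefSeq table.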

Additional observations from a re-analysis of the deposited data

Results flagged for a closer look

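For 11 values the difference between cystic and noncystic kidneys was not the same in an edited line as in the unedited mice, by the interaction term of limma (adjusted p below 0.05). For D18 the interaction was 1.15 ± 0.17 for Cldn2 (SE, adjusted p = 5.92e-05), 0.87 ± 0.23 for Cldn10 (adjusted p = 0.0115), -1.45 ± 0.21 for Cldn3 (adjusted p = 4.48e-05), -1.71 ± 0.21 for Cldn4 (adjusted p = 7.91e-06), -1.04 ± 0.16 for Cldn7 (adjusted p = 6.83e-05) and -1.70 ± 0.53 for Cldn14 (adjusted p = 0.0297). These 6 claudins stood beside 17.1% of all genes. The Cldn14 term was not called by edgeR (adjusted p = 0.0587) or DESeq2 (adjusted p = 0.0523), and without a single library its adjusted p rose to at most 0.105, without RC/+ D18 replicate 8. With libraries 18 and 19 alone for RC/- D18, Cldn10 missed the threshold (0.88, adjusted p = 0.0504).

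For D53 it was 0.97 ± 0.17 for Cldn2 (SE, adjusted p = 8.50e-04), 0.74 ± 0.23 for Cldn10 (adjusted p = 0.0413), -1.18 ± 0.21 for Cldn3 (adjusted p = 9.03e-04), -1.26 ± 0.21 for Cldn4 (adjusted p = 4.79e-04) and -0.82 ± 0.16 for Cldn7 (adjusted p = 0.00150, limma). These 5 stood beside 11.3% of all genes. With libraries 20 to 27 as a covariate, 1 of the 5 was still called, Cldn4, and Cldn2 was at 0.85 (adjusted p = 0.0528), Cldn3 at -0.90 (adjusted p = 0.0800), Cldn7 at -0.80 (adjusted p = 0.0519) and Cldn10 at 0.75 (adjusted p = 0.242). The Cldn10 term was also lost in 12 of the fits without a single library, with adjusted p up to 0.0996, without RC/+ replicate 5. Of 30 tests, 10 claudins in each of the 3 groups of 5 libraries, 0 found a library far from the others.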

How the results depend on the processing

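No paired analysis was possible because every mouse has its own replicate number and no litter is given. The counts of claudins called in RC/- vs RC/+ (8), RC/- D18 vs RC/- (8), RC/- D53 vs RC/- (6), D18 interaction (6) and the counts of 0 stayed within 1.5 times of these values. In the alternatives that keep every group they were 7 to 8, 7 to 8, 4 to 6, 5 to 6 and 0. Without single libraries they were 7 to 9, 8 to 9, 5 to 7, 5 to 7 and 0. With libraries 20 to 27 as a covariate, 1 claudin was called within the D53 line and 1 for the D53 interaction, and Cldn16 in RC/- D53 vs RC/- was 0.062 in place of -0.14. RC/- D53 against RC/- D18 gave 0 calls with TMM factors, DESeq2 size factors, edgeR, no filter, prior count 0.5, and libraries 18 and 19 alone for RC/- D18, 2 calls with the DESeq2 Wald test (Cldn3 and Cldn7), and 0 to 2 without single libraries. With the first 4 genes of the thick ascending limb list, Cldn10 relative to that list was -0.21 in RC/- vs RC/+, 0.13 in RC/- D18 vs RC/- and 0.15 in RC/- D53 vs RC/-, none of them called in either form, and the calls of Cldn8 in RC/- D18 vs RC/- (0.56) and Cldn3 in RC/- D53 vs RC/- (-0.72) were lost. The causes were not tested. Without single libraries, uncalled values near 0 changed sign: Cldn8 in RC/- D53 vs RC/- (-0.0017 to 0.11), and, relative to segment markers, Cldn2 (-0.072 to 0.095) and Cldn7 (-0.062 to 0.081) in RC/- vs RC/+ and Cldn10 (-0.18 to 0.022) and Cldn2 (-0.093 to 0.074) in RC/- D53 vs RC/-. The 10 segment-relative calls became 0 to 10 without single libraries, and 0 without any 1 library of RC/-, RC/- D18 or RC/- D53. Of 67 further claudin values, given in the text at most as ranges, 26 changed sign in some fit, all uncalled and at most 0.263 in size in the reported fit. Of the other single calls, Cldn10 in RC/- D53 vs RC/- was lost with the covariate (adjusted p = 0.0767), Cldn14 there with prior count 0.5 (-1.10, adjusted p = 0.0602) and with the covariate (-1.69, adjusted p = 0.0636), and Cldn2 within the D53 line passed with DESeq2 (adjusted p = 0.0209) and with only its own groups in limma (adjusted p = 0.00738). Groups of 3 limit every comparison with noncystic kidneys, and Cldn14, at 1 to 24 counts a library, is limited by depth.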
